A study of Mus musculus with 8 samples.

Results

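Aminoacyl-tRNA synthetases are the enzymes that load amino acids onto transfer RNA (tRNA). The 37 genes of this family described here are all rows of the count table whose symbol fits the naming pattern of this family (a one-letter amino acid code followed by ars, with Eprs, Farsa and Farsb) and whose mean over the 8 libraries was at least 1 CPM (a gene's count per 1000000 counts of named genes in its library). All 37 rows with such a symbol met the minimum, out of 24108 named genes, and all 37 also passed the filter on low counts. They comprise 20 cytosolic genes and 17 mitochondrial genes, whose symbols end in 2.

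Each synthetase attaches an amino acid to its matching tRNA, the step that reads the genetic code into protein. Animal cells keep separate enzymes for the cytosol and for the mitochondrial matrix, nearly all of them made from nuclear genes of their own, while the genes Kars (lysine) and Gars (glycine) serve both places. The enzymes fall into class I and class II by the fold of the catalytic core, and in animals several cytosolic ones sit with scaffold proteins in a multisynthetase complex. Genes of this family are known targets of ATF4, the transcription factor that translates amino acid shortage into transcription, and dividing lymphocytes make large amounts of protein.

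RNA was measured in CD4 T cells from the mesenteric lymph nodes of mice carrying both reporter alleles of Foxp3 (Foxp3DTR-GFP/Thy1.1), the gene that defines regulatory T (Treg) cells, with 1 copy each of CD4CreER and R26lsl-tdTomato. Only the GFP allele is named with the diphtheria toxin receptor (DTR). The mice had been kept from birth through weaning on AVNM, an abbreviation the labels do not expand, and a diet of defined amino acids. Tamoxifen then activated the CD4-driven Cre, which switched on tdTomato, and the mice received diphtheria toxin over the same period of about 3 weeks. The design text describes the labelled cells as CD4 T cells outside the thymus without Foxp3, and whether this holds for cells of the Thy1.1 allele, which is not named with the receptor, is not in the labels. Afterwards the animals ate chow and received a fecal microbiota from specific pathogen-free mice, and cells were sorted 12 days after that colonization. The 4 populations, each with 2 libraries, were tdTomato-positive GFP cells (libraries 3 and 4), tdTomato-negative GFP cells (3 and 4), tdTomato-positive Thy1.1 cells (1 and 2) and tdTomato-negative Thy1.1 cells (1 and 2). Cells positive for tdTomato are called marked here and cells negative for it unmarked. All 4 shared genotype, diet, toxin, tamoxifen and colonization, but the receptor for the toxin is named on the GFP allele only. In contrasts of GFP with Thy1.1 cells, the reporter and being a target of the toxin cannot be told apart. Whether the libraries of a population, or cells of the 2 reporters, had separate animals as their source is not in the labels. P-values therefore cover the spread among the libraries at hand, which could be technical only.

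Libraries held 38085686 to 47908198 counts. The least abundant synthetase gene in any library, Mars2, still had 283 counts, far above the 3 counts that a count of 0 allows (0.0626 to 0.0788 CPM; counting error only). T cell genes and Foxp3 (124 to 199 CPM) were present in all 8 libraries. Genes of other cells set 2 libraries apart. In marked GFP cells, 8 myeloid and dendritic markers summed to 23.9 CPM in library 3 and 0.867 CPM in library 4. In unmarked GFP cells they summed to 112 CPM in library 3 and 4.83 CPM in library 4, and in the 4 Thy1.1 libraries to 1.71 to 4.71 CPM, with H2-Ab1 at 0 in all 8 libraries. The 4 erythroid markers in the table reached 46.7 CPM in marked GFP library 3 and at most 5.25 CPM elsewhere. B cell, plasma cell and CD8 or NK markers summed to at most 20.01, 3.24 and 39.0 CPM in any library. The part of these cells in the results was not tested, and values or ranges without marked GFP library 3, and without unmarked GFP library 3 where the contrast holds it, are given for the synthetase genes that passed.

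Promoter sequence is shown for 3 genes that carry the letters of the C/EBP-ATF response element, TGATGCAA, the kind of site through which ATF4 acts, because the design included a change of diet and ATF4 responds to amino acid supply. RefSeq promoter windows on GRCm38.p6, from 250 bases before to 50 after the start of transcription, were available for 13 of 20 cytosolic and 14 of 17 mitochondrial genes. The 8 letters occurred on either strand in 4 of the 13 cytosolic windows (Aars, Iars, Tars and Yars) and in 0 of the 14 mitochondrial windows. Over all genes they occurred in 279 of 27025 windows of the same length (1.03%). The looser form TGATGNAA, which contains the exact one, also occurred in Gars, and in 1219 windows overall (4.51%). The matches in Iars, Tars and Yars are printed on the strand of their gene, with the match in capitals, which in Iars and Tars is the reverse complement. They lie in turn at chr13:49682126-49682155 (plus strand), chr15:11399655-11399684 (minus) and chr4:129189895-129189924 (plus).
Iars: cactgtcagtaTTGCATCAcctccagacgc
Tars: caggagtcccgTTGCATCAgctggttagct
Yars: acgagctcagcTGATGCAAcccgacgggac
A match is only a string of letters in the window, and no binding was measured.

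The mean CPM over 8 libraries, which sets the precision here and is not a level per length, ran from 49.3 (Cars) to 300.5 (Vars) for cytosolic genes and from 12.4 (Mars2) to 520.5 (Lars2) for mitochondrial genes, with medians of 113.5 and 34.7 CPM. Over the 13989 genes tested the median was 30.2 CPM. The highest library exceeded the lowest by a median factor of 1.38 among cytosolic genes and 1.98 among mitochondrial ones, against 2.07 over all genes tested. The ratio was not adjusted for level, and the compartments differed in level too, so a difference between them was not tested. The steadiest was Farsa (1.19), the alpha subunit of phenylalanyl-tRNA synthetase, and the least steady Vars2 (2.92), the mitochondrial valine enzyme.

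The 20 cytosolic genes summed to 2482 and 2582 CPM in marked GFP cells, 2306 and 2406 CPM in unmarked GFP cells, 2422 and 2393 CPM in marked Thy1.1 cells, and 2424 and 2463 CPM in unmarked Thy1.1 cells. The highest of these libraries was 1.12 times the lowest. The 17 mitochondrial genes summed to 1134 and 1232 CPM, 1145 and 1128 CPM, 1216 and 1268 CPM, and 1161 and 1166 CPM in the same populations. Lars2, the leucine enzyme, had 461 to 590.3 CPM of that sum. Without it the sums were 569 to 659 CPM in the 4 GFP libraries, all below the 686 to 710 CPM of the 4 Thy1.1 libraries, a difference seen after the fact and not tested. Over the same libraries 16 cell cycle genes summed to 1695 and 1340 CPM in marked GFP cells, 888 and 651 CPM in unmarked GFP cells, 421 and 374 CPM in marked Thy1.1 cells, and 437 and 410 CPM in unmarked Thy1.1 cells. In these bulk samples a difference in the share of cells of one kind and a difference in RNA per cell cannot be told apart.

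**Figure D1:**
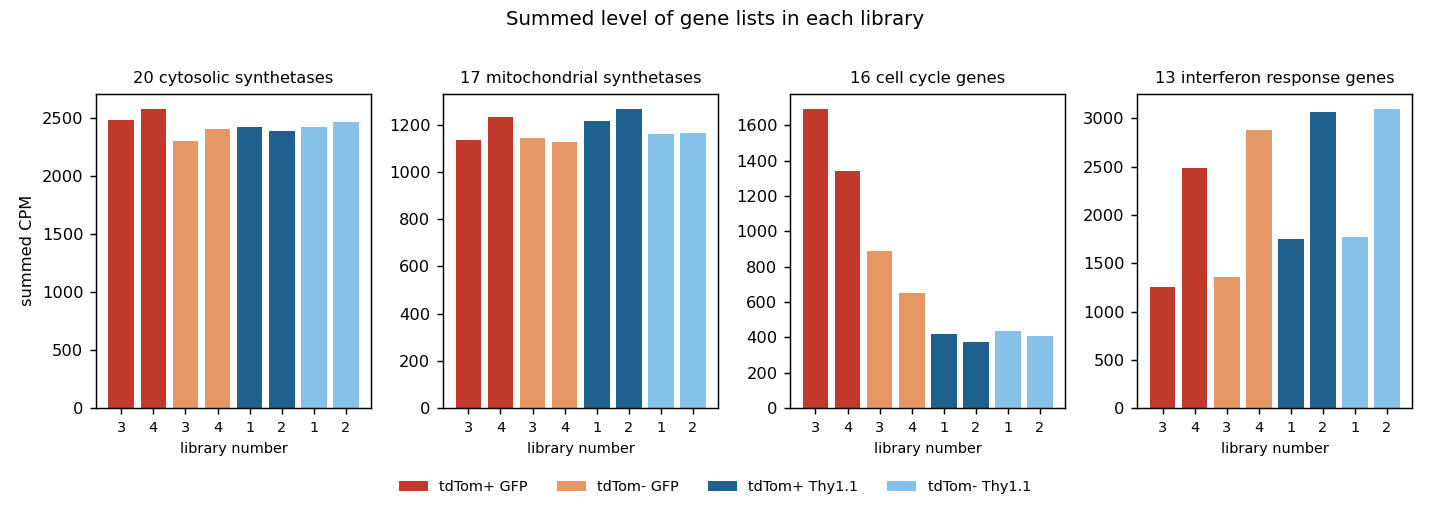
Summed CPM (y axis) of 4 gene lists in each of the 8 libraries (x axis, library number; colour, population). Bars start at 0 and are single libraries. The cytosolic sums lie between 2306 and 2582 CPM and the mitochondrial sums between 1128 and 1268 CPM, while the cell cycle sums reach 1695 CPM in marked GFP cells and the interferon response sums are higher in libraries 2 and 4 than in libraries 1 and 3 of every population.

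Levels of different genes can be set side by side only per length. Per kilobase of the union of annotated exons (GENCODE annotation of GRCm38), the highest were Vars at 53.6 CPM per kilobase, Dars (aspartate) at 47.3, Lars2 at 46.9 and Farsb (the beta subunit of the phenylalanine enzyme) at 46.0. Per kilobase of the longest transcript the order changed to Lars2 at 134 CPM per kilobase, Dars at 94.7 and Vars at 72.6. Mars2, the mitochondrial methionine enzyme, was lowest by either length, at 1.096 CPM per kilobase. The median per kilobase of exons was 24.5 CPM among cytosolic and 6.79 CPM among mitochondrial genes. Apart from Lars2, the mitochondrial genes lay at or below 25.8 CPM per kilobase of exons. Lars2 shares a stretch of 72 nt with 98.61% identity with the antisense gene Gm15564, and Iars shares 1656 nt at 96.01% with the pseudogene Gm4849, so their levels are uncertain.

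**Figure D2:**
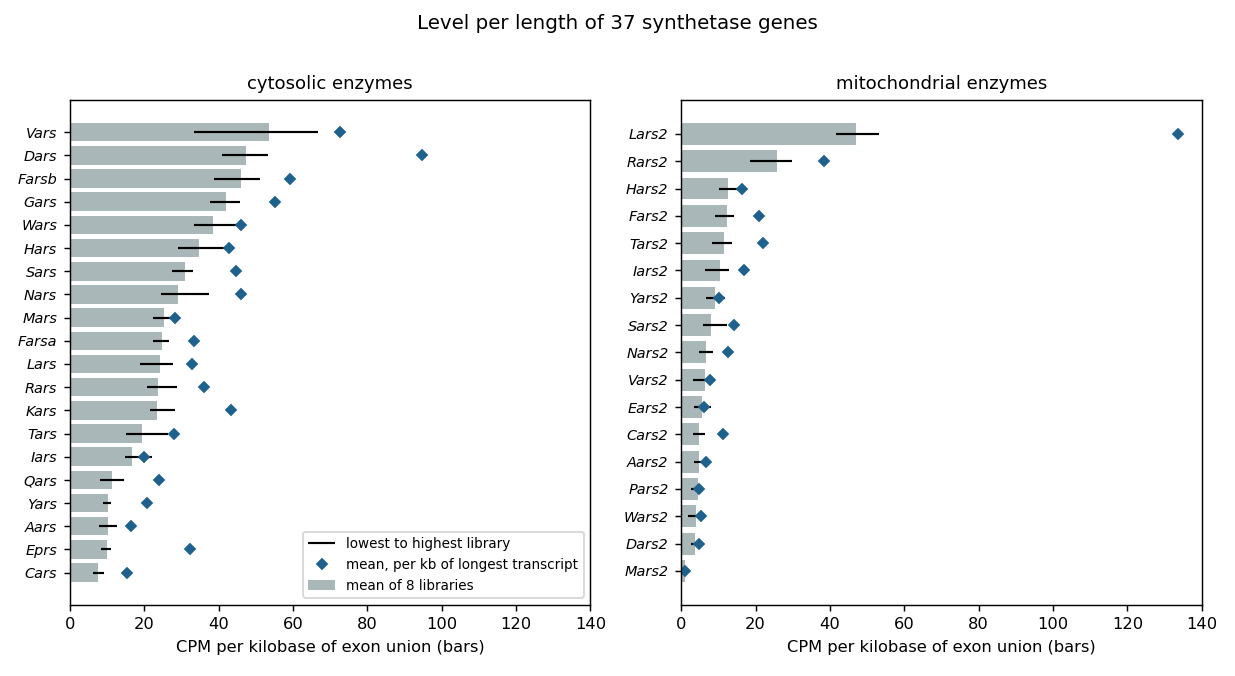
CPM per kilobase (x axis) of the 20 cytosolic and 17 mitochondrial synthetase genes. Bars give the mean of 8 libraries per kilobase of exon union, black lines the lowest to the highest library, and diamonds the mean per kilobase of the longest transcript. Vars, Dars, Lars2 and Farsb lead on exon length, and Lars2 leads on transcript length.

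The comparison of marked GFP cells with marked Thy1.1 cells sets marked cells of one Foxp3 reporter against marked cells of the other. In it 4 synthetase genes were higher in the GFP cells (the cytosolic Aars, Hars and Rars and the mitochondrial Sars2) and 2 were lower (the mitochondrial Wars2 and Nars2). These 6 of 37 genes (16.2%) stand beside 14.8% of all genes tested that were called (edgeR quasi-likelihood test, Benjamini-Hochberg adjusted p under 0.05), so the share called in the family was close to that of the transcriptome. By direction, 3 of 20 cytosolic genes were higher and 0 lower, and 1 of 17 mitochondrial genes was higher and 2 lower, against 8.01% of all genes called higher and 6.82% called lower. The median log2 fold change was 0.18 for cytosolic genes, -0.06 for mitochondrial genes and -0.01 over all genes tested, and 16 of 20 cytosolic genes but 5 of 17 mitochondrial genes had a positive sign. In the same contrast 15 of the 16 cell cycle genes were higher, with a median of 2.80, and 1 of 3 tested erythroid markers was higher. Of 5 T cell genes Cd4 was higher (0.56 ± 0.09, edgeR adjusted p = 0.00742) and Foxp3 lower (-0.48 ± 0.12, edgeR adjusted p = 0.0314). The part of all these genes in the synthetase values was not tested.

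Wars2 encodes the mitochondrial tryptophan enzyme (chr3:99141068-99239186 of GRCm38, plus strand). It had 13.03 and 11.5 CPM in marked GFP cells, 25.8 and 28.7 CPM in unmarked GFP cells, 30.6 and 21.8 CPM in marked Thy1.1 cells, and 27.5 and 27.2 CPM in unmarked Thy1.1 cells. Both marked GFP libraries lay below the 6 others, which overlapped one another. Against marked Thy1.1 cells its log2 fold change was -1.04 ± 0.22 (SE, 2 libraries per population; edgeR adjusted p = 0.0198). The change stayed past the threshold without the library high in erythroid genes, marked GFP library 3 (-1.18, edgeR adjusted p = 0.042), and missed it without marked GFP library 4 (-0.97, adjusted p = 0.0587) or marked Thy1.1 library 1 (-0.83, adjusted p = 0.137), or when only the 4 libraries compared were fitted (-1.06, adjusted p = 0.059). No exon of another gene overlaps those of Wars2.

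Nars2, the mitochondrial asparagine enzyme (chr7:96951505-97064758, plus strand), was the other gene lower in this contrast. It had 32.6 and 33.0 CPM in marked GFP cells, 40.9 and 56.8 CPM in unmarked GFP cells, 54.4 and 59.8 CPM in marked Thy1.1 cells, and 48.9 and 52.1 CPM in unmarked Thy1.1 cells. The marked GFP libraries were again the lowest of the 8. The log2 fold change against marked Thy1.1 cells was -0.74 ± 0.18 (edgeR adjusted p = 0.0338), and it missed the threshold without either library of marked GFP, marked Thy1.1 or unmarked Thy1.1 cells (-0.86 to -0.72, adjusted p from 0.0552 to 0.156). Its exons overlap 284 nt of C230038L03Rik on the other strand, and because the library kit does not mark strand, reads there cannot be told apart.

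Sars2, the mitochondrial serine enzyme (chr7:28741992-28753871, plus strand), moved the other way. It had 40.8 and 30.8 CPM in marked GFP cells, 28.7 and 19.9 CPM in unmarked GFP cells, 19.1 and 19.4 CPM in marked Thy1.1 cells, and 30.7 and 24.3 CPM in unmarked Thy1.1 cells. The marked GFP libraries exceeded those of marked Thy1.1 cells, although the lower one was level with the higher unmarked Thy1.1 library. The log2 fold change was 0.95 ± 0.24 (edgeR adjusted p = 0.0352). It was 0.69 without marked GFP library 3 (adjusted p = 0.162), the library high in erythroid genes, and 0.89 to 0.91 without a Thy1.1 library (adjusted p from 0.0651 to 0.206).

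The 3 cytosolic genes that were higher changed by less than a log2 unit each. Aars, the alanine enzyme (chr8:111033144-111057664, plus strand), had 103.9 and 118.0 CPM in marked GFP cells against 88.7 and 71.9 CPM in marked Thy1.1 cells, a log2 fold change of 0.53 ± 0.14 (edgeR adjusted p = 0.0373). In the unmarked populations Aars lay between, at 93.9 and 91.2 CPM with GFP and 94.9 and 90.9 CPM with Thy1.1. Up to 1326 nt of its exons are shared with Exosc6 on the same strand, whose own log2 fold change was 0.24 ± 0.14 (adjusted p = 0.316), so the split of reads between them is uncertain.

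Hars, the cytosolic histidine enzyme, had 100.4 and 102.6 CPM in marked GFP cells against 71.0 and 83.1 CPM in marked Thy1.1 cells, with 92.9 and 81.9 CPM in unmarked GFP cells and 73.3 and 74.3 CPM in unmarked Thy1.1 cells. Its log2 fold change was 0.46 ± 0.12 (edgeR adjusted p = 0.0427). Hars and Hars2 share 195 nt of exons on opposite strands, and Hars2 was at -0.03 ± 0.21.

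Rars, the arginine enzyme of the multisynthetase complex (chr11:35808381-35834506, minus strand), had 85.1 and 93.2 CPM in marked GFP cells, 84.3 and 76.3 CPM in unmarked GFP cells, 68.9 and 68.6 CPM in marked Thy1.1 cells, and 66.7 and 67.3 CPM in unmarked Thy1.1 cells. All 4 GFP libraries lay above all 4 Thy1.1 libraries. The log2 fold change was 0.44 ± 0.11 in marked cells (edgeR adjusted p = 0.0395) and 0.26 ± 0.11 in unmarked cells (adjusted p = 0.429). The calls of Aars, Hars and Rars were the least firm: all 3 missed the threshold when libraries were scaled by their totals alone (adjusted p from 0.0556 to 0.074), and each missed it when any 1 of 7 libraries was left out, Aars also without the eighth (adjusted p from 0.0512 to 0.364 over all of these). With 1 library left out the log2 fold change ranged over 0.33 to 0.63 for Aars, 0.30 to 0.53 for Hars and 0.35 to 0.45 for Rars. Aars was at 0.33 without marked Thy1.1 library 2 (edgeR adjusted p = 0.296) and Hars at 0.30 without marked Thy1.1 library 1 (adjusted p = 0.364). Without marked GFP library 3, the library high in erythroid genes, Aars was at 0.57 (adjusted p = 0.0623), Hars at 0.43 (adjusted p = 0.13) and Rars at 0.45 (adjusted p = 0.0776). Without unmarked GFP library 3 they were at 0.53 (adjusted p = 0.0512), 0.46 (adjusted p = 0.0476) and 0.44 (adjusted p = 0.0467) in turn. When only the 4 libraries compared were fitted their adjusted p was 0.0919 to 0.0937.

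**Figure D3:**
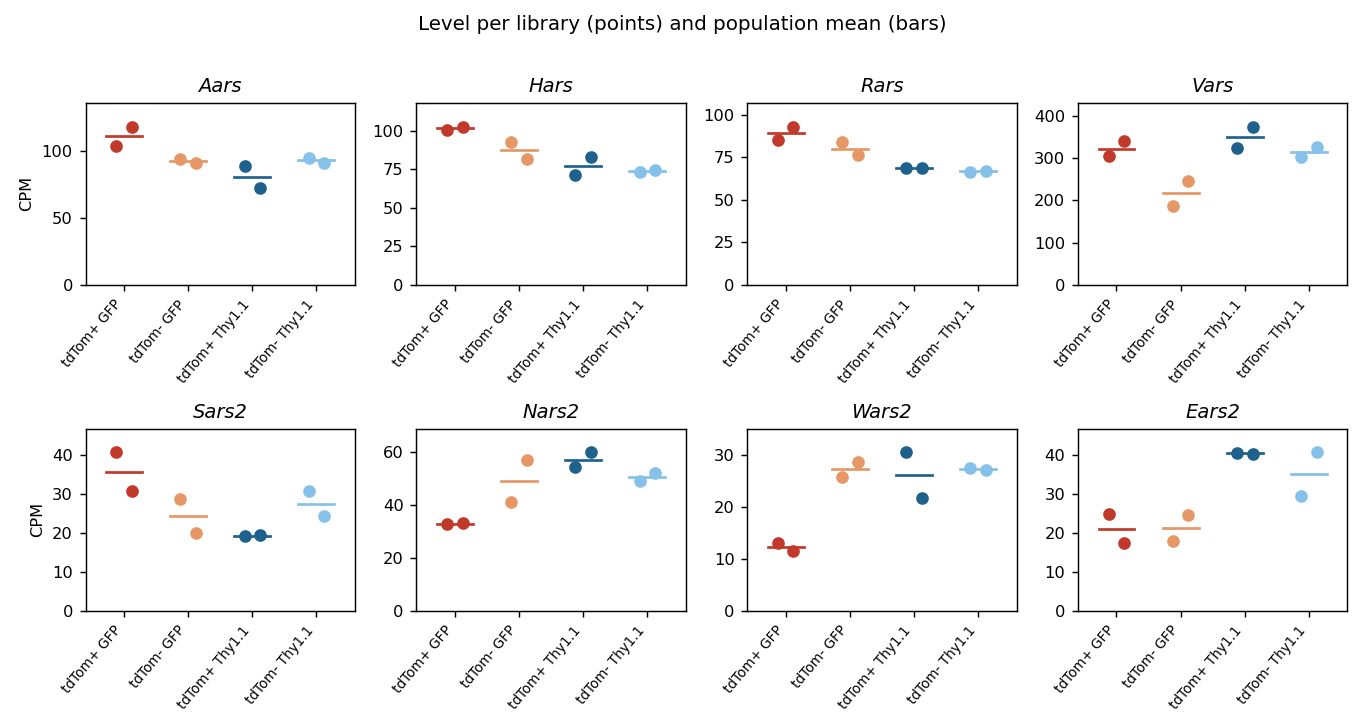
CPM (y axis, from 0) of 8 synthetase genes in the 2 libraries of each population (points; bars, population means). Wars2 and Nars2 are lowest in marked GFP cells, Vars is lowest in unmarked GFP cells, and Ears2 is lower in all 4 GFP libraries (at most 24.7 CPM) than in the 4 Thy1.1 libraries (at least 29.5 CPM).

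The 6 genes that were to be described whatever their values did not pass in any comparison. Wars, the cytosolic tryptophan enzyme, is known as an interferon-induced gene. It had 121.3 and 115.2 CPM in marked GFP cells, 123.4 and 153.4 CPM in unmarked GFP cells, 145.5 and 117.6 CPM in marked Thy1.1 cells, and 157.6 and 127.9 CPM in unmarked Thy1.1 cells. It was lower in the second library of 3 populations, whereas 13 interferon response genes summed higher there in all 4 (2482 against 1254 CPM in libraries 4 and 3 of marked GFP cells, and 2881 against 1355 CPM, 3063 against 1747 CPM and 3100 against 1776 CPM in the others). For the first contrast Wars was at -0.09 ± 0.17 (95% interval -0.47 to 0.29), while its mitochondrial counterpart Wars2 was at -1.04.

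Kars and Gars, which make the lysine and glycine enzymes of both compartments, did not pass. Kars had 110.0 and 126.4 CPM in marked GFP cells, 101.2 and 103.2 CPM in unmarked GFP cells, 96.5 and 104.1 CPM in marked Thy1.1 cells, and 97.5 and 100.5 CPM in unmarked Thy1.1 cells. Its difference between the marked populations was 0.30 ± 0.11 (edgeR adjusted p = 0.125, 95% interval 0.03 to 0.56). Gars had 142.5 and 135.5 CPM, 137.6 and 131.6 CPM, 127.2 and 128.4 CPM, and 129.7 and 117.6 CPM in the same populations, with a difference of 0.18 ± 0.10 (adjusted p = 0.262, 95% interval -0.04 to 0.41).

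Farsa and Farsb encode the 2 subunits of 1 enzyme. Farsa had 109.2 and 104.5 CPM in marked GFP cells, 107.7 and 113.8 CPM in unmarked GFP cells, 100.9 and 120.4 CPM in marked Thy1.1 cells, and 120.5 and 118.3 CPM in unmarked Thy1.1 cells, and its difference between the marked populations was 0.01 ± 0.12 (95% interval -0.26 to 0.28). Farsb had 134.3 and 120.4 CPM, 130.3 and 120.1 CPM, 101.5 and 113.2 CPM, and 124.7 and 119.8 CPM in the same populations, with a difference of 0.31 ± 0.11 (edgeR adjusted p = 0.103, 95% interval 0.05 to 0.56). The intervals of the subunits overlap. Farsb overlaps Sgpp2 by 248 nt on the other strand.

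Eprs encodes a fused enzyme for glutamate and proline. It had 158.0 and 188.2 CPM in marked GFP cells, 176.6 and 195.1 CPM in unmarked GFP cells, 187.0 and 152.9 CPM in marked Thy1.1 cells, and 201.2 and 194.1 CPM in unmarked Thy1.1 cells. The unmarked Thy1.1 libraries lay above both marked populations, all other pairs of populations overlapped, and the difference between the marked populations was 0.09 ± 0.14 (95% interval -0.23 to 0.40).

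Split by structure, 1 of 10 cytosolic class I genes and 2 of 10 class II genes passed as higher in marked GFP cells than in marked Thy1.1 cells. Their medians were 0.11 and 0.26 on the log2 scale, against -0.01 over all genes tested. Of all genes tested 8.01% were called higher and 6.82% lower, and whether any group named here differs from that was not tested. The class II sum was 1320 and 1359 CPM in marked GFP cells and 1214 to 1239 CPM in the 6 other libraries, a difference seen after the fact and not tested. Of the 8 enzymes of the multisynthetase complex 1 was higher (Rars, median 0.13), and of the 12 others 2 were (median 0.19). The complex's scaffold genes Aimp1, Aimp2 and Eef1e1 were at 0.07 ± 0.19, 0.21 ± 0.18 and 0.00 ± 0.16, with edgeR adjusted p of at least 0.512. Of the mitochondrial genes, 0 of 9 in class I were higher and 1 lower, and 1 of 8 in class II was higher and 1 lower.

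Of the genes whose promoter stretch is printed above, Tars, the threonine enzyme, was at 0.42 ± 0.20 (edgeR adjusted p = 0.193). Yars, the tyrosine enzyme, was at 0.13 ± 0.17, and Iars, the isoleucine enzyme, at 0.09 ± 0.17. Aars, which carries the exact letters but is not printed, was called higher in the same contrast (0.53 ± 0.14, edgeR adjusted p = 0.0373). Of 20 tested genes on a list of the ATF4 and amino acid response, 1 was higher and 0 were lower, against 8.01% and 6.82% of all genes tested. The list's median was 0.30 and that of all genes -0.01, and whether the list differs was not tested. The gene called was Psat1, an enzyme of serine synthesis. It had 74.9 and 83.7 CPM in marked GFP cells against 47.8 and 42.9 CPM in marked Thy1.1 cells (0.87 ± 0.21, edgeR adjusted p = 0.0313). Without marked GFP library 3 Psat1 was at 0.90 (adjusted p = 0.0747), and it passed in 4 of the 8 fits with 1 library left out. Atf4 itself had 108.3 and 90.1 CPM against 68.5 and 79.3 CPM (0.48 ± 0.15, edgeR adjusted p = 0.0689; DESeq2 adjusted p = 0.0347; 0.30 without marked GFP library 3). With other scalings and filters in edgeR it stayed short of the threshold (adjusted p from 0.0688 to 0.111).

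Ears2, the mitochondrial glutamate enzyme, and the genes with a printed promoter stretch were picked after their values were seen. Ears2 had 24.7 and 17.3 CPM in marked GFP cells, 17.8 and 24.5 CPM in unmarked GFP cells, 40.4 and 40.3 CPM in marked Thy1.1 cells, and 29.5 and 40.6 CPM in unmarked Thy1.1 cells. All 4 GFP libraries lay below all 4 Thy1.1 libraries. Its log2 fold change was -0.88 ± 0.26 in marked cells (edgeR adjusted p = 0.0622; DESeq2 adjusted p = 0.0134; -1.21 without marked GFP library 3, edgeR adjusted p = 0.0528) and -0.73 ± 0.26 in unmarked cells (edgeR adjusted p = 0.338). Exons of Ears2 overlap Ubfd1 by 89 nt on the other strand.

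The 95% interval of the log2 fold change lay within 1 log2 unit of 0 for 20 of 20 cytosolic and 12 of 17 mitochondrial genes in this contrast, with median standard errors of 0.13 and 0.23. The 17 cytosolic genes that were not called ranged over Dars at -0.20 ± 0.10 and Qars, the glutamine enzyme, at 0.46 ± 0.18 (edgeR adjusted p = 0.122). The 14 mitochondrial genes that were not called lay between Ears2 and Aars2 (0.65 ± 0.29, adjusted p = 0.182).

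**Figure D4:**
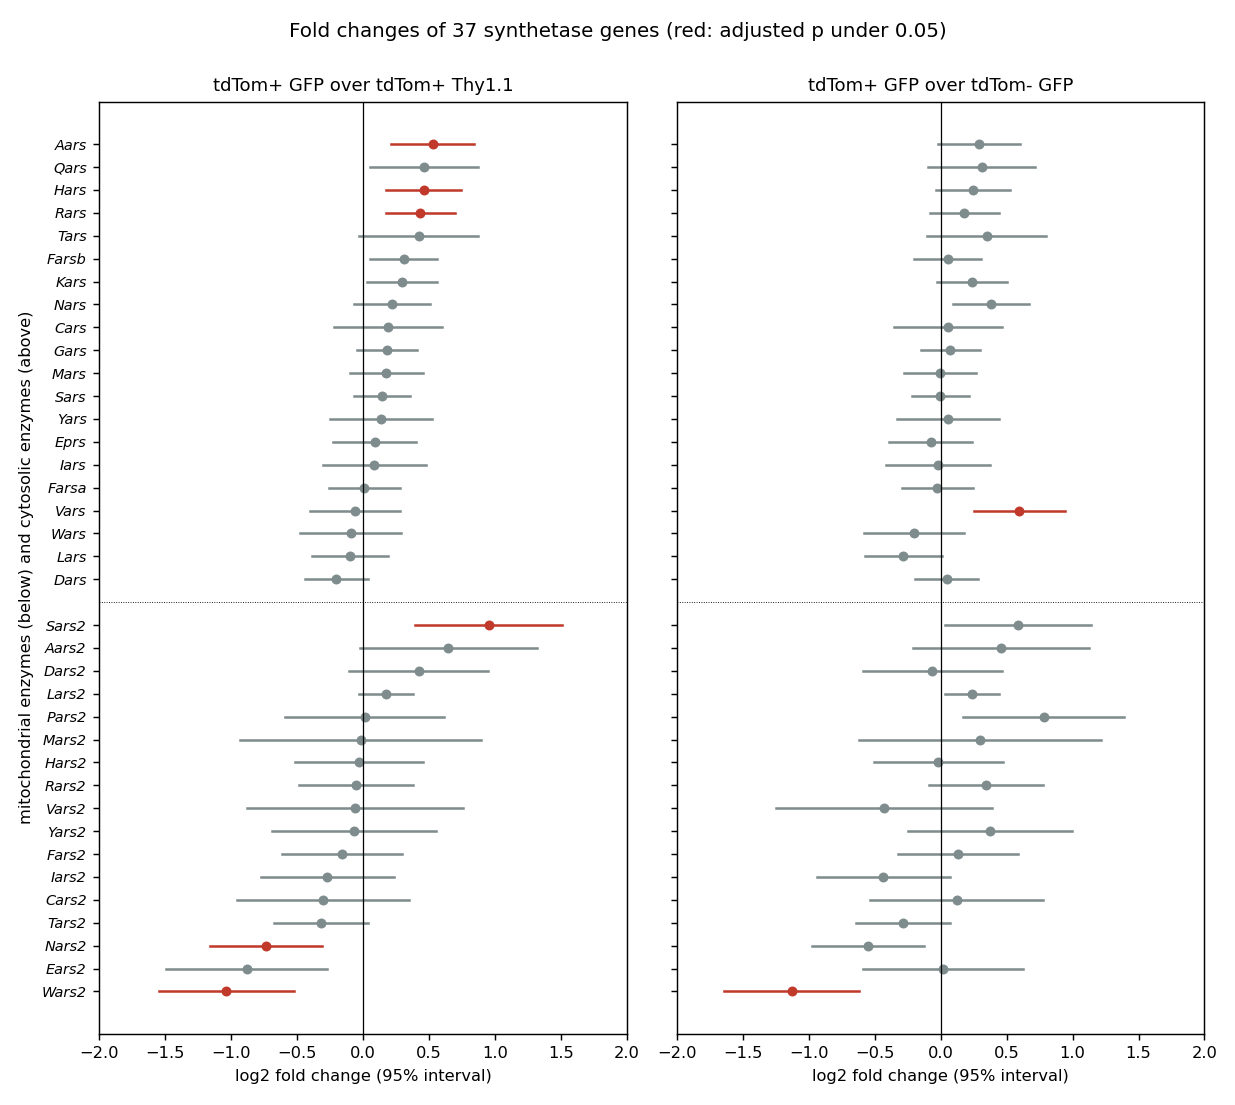
Log2 fold change (x axis) with its 95% interval of each synthetase gene (rows; cytosolic above the dotted line, mitochondrial below) for marked GFP over marked Thy1.1 cells (left) and over unmarked GFP cells (right). Red marks adjusted p under 0.05. Most intervals lie within 1 log2 unit of 0, and Wars2, at -1.04 and -1.13, is red in both panels, which share the marked GFP libraries.

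The second contrast set marked against unmarked cells of the GFP reporter. Here 2 of 37 genes (5.41%) were called, Vars higher and Wars2 lower, against 12.6% of all genes tested (6.24% higher, 6.4% lower), a share below that of the transcriptome, although whether it differs was not tested. The median log2 fold change was 0.06 for cytosolic genes, 0.12 for mitochondrial genes and 0.03 over all genes. Of the 16 cell cycle genes 10 were higher, with a median of 1.23. Their count was 2 without marked GFP library 3, 1 without unmarked GFP library 4, 6 without either marked Thy1.1 library and 0 when only the 4 libraries compared were fitted. Of 5 T cell genes, Cd3g (0.39 ± 0.11, edgeR adjusted p = 0.0499) and Cd4 (0.35 ± 0.09, edgeR adjusted p = 0.0413) were higher. Some genes listed as markers of other cells differed in this contrast as well. Pecam1, listed as an endothelial marker, was lower in marked GFP cells (96.5 and 152 CPM) than in unmarked GFP cells (278 and 300.5 CPM). The change was -1.19 ± 0.19 (edgeR adjusted p = 0.00917), and -0.94 without marked GFP library 3. Epcam, listed as an epithelial marker, was higher (45.9 and 30.7 CPM against at most 18.3 CPM, 1.42 ± 0.28, edgeR adjusted p = 0.0194). Cd8b1, listed for CD8 T cells, was lower (6.57 and 8.17 CPM against 25.9 and 15.6 CPM, -1.46 ± 0.34, edgeR adjusted p = 0.0303). Without marked GFP library 3 they were at 1.06 and -1.35 in turn, and without unmarked GFP library 3 at 1.81 and -1.07. When only the 4 libraries compared were fitted, Pecam1, Epcam and Cd8b1 missed the threshold (edgeR adjusted p = 0.0572, 0.0948 and 0.0945 in turn). On the same list as Cd8b1, Cd8a was at -3.78 ± 1.28 and Klrb1c at 0.32 ± 0.66, and neither was called. The 5 stromal and epithelial markers summed to 153 and 184 CPM in marked GFP cells and 298 and 312 CPM in unmarked GFP cells. In marked Thy1.1 cells they summed to 229 and 229 CPM, and in unmarked Thy1.1 cells to 270 and 269 CPM. Most of each sum was Pecam1, and Epcam went the other way. Col1a1 had at most 7.70 CPM in any library. Krt8 and Pdgfrb, at most 0.21 and 2.71 CPM, were too low to be tested. Which cells these transcripts came from was not tested. The part of the cell cycle genes and of these markers in the synthetase values was not tested either.

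Vars, the cytosolic valine enzyme (chr17:35000987-35016322, plus strand), had 304.3 and 339.9 CPM in marked GFP cells and 187.6 and 245.8 CPM in unmarked GFP cells, with 324.9 and 374.6 CPM in marked and 301.6 and 325.3 CPM in unmarked Thy1.1 cells. The unmarked GFP libraries were the lowest of the 8, and the other 3 populations overlapped. The log2 fold change was 0.60 ± 0.15 (edgeR adjusted p = 0.0385). Without unmarked GFP library 3, the library high in myeloid and dendritic genes, it was 0.40 (adjusted p = 0.107), and without any of the other libraries but unmarked GFP library 4 the adjusted p lay between 0.0813 and 0.113 (0.135 when only the 4 libraries compared were fitted). No exon of another gene overlaps those of Vars.

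Wars2 was lower in marked GFP cells in this contrast too, at -1.13 ± 0.22 (edgeR adjusted p = 0.0188). This is not independent of the first contrast, since both use the same marked GFP libraries. The value was -1.22 without unmarked GFP library 3 (adjusted p = 0.0346) and -1.27 without marked GFP library 3 (adjusted p = 0.0434). It missed the threshold without marked GFP library 4 (-1.05, adjusted p = 0.0501) or unmarked GFP library 4 (-1.08, adjusted p = 0.0859), or when only the 4 libraries compared were fitted (-1.16, adjusted p = 0.0808).

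The other genes called in the first contrast were at 0.29 ± 0.14 (Aars), 0.24 ± 0.12 (Hars), 0.18 ± 0.11 (Rars), 0.59 ± 0.24 (Sars2) and -0.55 ± 0.18 (Nars2) here, with edgeR adjusted p from 0.0912 to 0.340. The cytosolic asparagine enzyme gene Nars was at 0.38 ± 0.13 (adjusted p = 0.0864) and the mitochondrial proline enzyme gene Pars2 at 0.78 ± 0.26 (adjusted p = 0.0948). The 6 genes described whatever their values lay between -0.20 ± 0.17 (Wars) and 0.24 ± 0.11 (Kars). The 95% interval lay within 1 log2 unit of 0 for 20 of 20 cytosolic and 11 of 17 mitochondrial genes.

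Partners of the synthetases were read in the same contrasts. Of 4 mitochondrial elongation factor genes Gfm1 was higher in marked GFP cells, with 114.8 and 105.8 CPM against 77.6 and 65.1 CPM in unmarked GFP cells (0.66 ± 0.14, edgeR adjusted p = 0.0219) and 75.1 and 81.8 CPM in marked Thy1.1 cells (0.55 ± 0.14, adjusted p = 0.032). Without marked GFP library 3 these were 0.56 and 0.45, past the threshold in neither, and without unmarked GFP library 3 they were 0.77 and 0.55. With 1 library left out they ranged over 0.51 to 0.77 and 0.44 to 0.59, and neither call was kept in every such fit. When only the 4 libraries compared were fitted they were 0.62 (edgeR adjusted p = 0.0954) and 0.53 (adjusted p = 0.0505). Scaling by library totals alone left the difference from marked Thy1.1 cells at 0.49 (edgeR adjusted p = 0.0515). Mtfmt, which formylates the mitochondrial initiator tRNA and was 1 of 4 genes on a list with the amidotransferase that makes mitochondrial glutaminyl-tRNA, was higher than in unmarked GFP cells (0.66 ± 0.18, adjusted p = 0.0494), a call lost without any 1 of the 8 libraries (0.46 to 0.84, adjusted p from 0.0646 to 0.176). Lists of cytosolic elongation factors (5 genes), mitochondrial tRNA maturation (7), selenocysteine tRNA (4), trans-editing and synthetase-like proteins (5), eIF2alpha kinases (4) and the complex's scaffold (3) had 0 calls by edgeR and by DESeq2 in either contrast, with 1 of the 28 genes at an unadjusted p under 0.05 in each. Over all 13989 genes 14.8% and 12.6% were called, and 4181 and 4058 had an unadjusted p under 0.05. Whether the share differs for the partners was not tested.

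On the ATF4 and amino acid response list, 2 of 20 tested genes passed as higher and 1 as lower in marked GFP cells against unmarked GFP cells. Over all genes tested 6.24% were called higher and 6.4% lower. The list's median was 0.33 and that of all genes 0.03, and whether the list differs was not tested. Cebpb, a C/EBP factor, had 41.2 and 41.1 CPM against 10.6 and 10.8 CPM (1.97 ± 0.22, edgeR adjusted p = 0.00243), and it passed without any 1 library (1.93 to 1.97). Slc3a2 and Slc7a5 encode the 2 chains of 1 amino acid transporter and went opposite ways, Slc3a2 at 0.44 ± 0.12 (adjusted p = 0.0495) and Slc7a5 at -0.57 ± 0.13 (adjusted p = 0.0284). With 1 library left out Slc3a2 passed in 1 of 8 fits (0.28 to 0.57, adjusted p up to 0.29; 0.28 without unmarked GFP library 4) and Slc7a5 in 3 of 8 (-0.69 to -0.50, adjusted p up to 0.112). Of 5 genes on a list of mTORC1 and Myc, 1 was lower. Myc, a driver of growth genes, was lower in marked GFP cells, with 128.2 and 165.9 CPM, than in unmarked GFP cells, with 253.1 and 312.4 CPM (-0.92 ± 0.17, adjusted p = 0.0152), and than in marked Thy1.1 cells, with 245.7 and 281.0 CPM (-0.78 ± 0.17, adjusted p = 0.0215). Without marked GFP library 3 these were -0.78 and -0.65, past the threshold in neither. With 1 library left out they ranged over -1.12 to -0.78 and -0.996 to -0.65, and neither call was kept in every such fit. When only the 4 libraries compared were fitted they were -0.95 (edgeR adjusted p = 0.0639) and -0.80 (adjusted p = 0.0352).

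Between unmarked GFP and unmarked Thy1.1 cells 0 of 37 genes were called, where 0.164% of all genes were (0.0643% higher, 0.1% lower). At an unadjusted p under 0.05 there were 5 of the 37 (13.5%) and 1662 of all genes (11.9%), and DESeq2 called 1 of the 37 and 573 of all genes. The nearest to the threshold was Vars at -0.53 ± 0.15 (edgeR adjusted p = 0.214; DESeq2 adjusted p = 0.0264), whose value was -0.34 without unmarked GFP library 3. The median was 0.01 for cytosolic genes and -0.13 for mitochondrial genes, with 20 of 20 and 12 of 17 intervals within 1 log2 unit of 0.

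Between marked and unmarked Thy1.1 cells 0 of 37 genes were called, and 0.0% of all genes (edgeR; 1063 of all genes but 0 of the 37 had an unadjusted p under 0.05, and DESeq2 called 150 of all genes and 0 of the 37). The smallest adjusted p was that of Sars2 at -0.55 ± 0.24 (0.653, 95% interval -1.10 to 0.01). The median was -0.01 for cytosolic genes, which became 0.03 when libraries were scaled by totals alone, and 0.07 for mitochondrial genes, with 20 of 20 and 14 of 17 intervals within 1 log2 unit of 0.

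Whether the effect of the tdTomato label differed between the reporters was tested as an interaction. It called 0 of 37 genes and 0.443% of all genes (0.0929% higher, 0.35% lower; edgeR; 4 of the 37 and 1792 of all genes at an unadjusted p under 0.05, and 0 of the 37 and 568 of all genes by DESeq2). The difference of differences was 1.13 ± 0.34 for Sars2 (edgeR adjusted p = 0.236, 95% interval 0.35 to 1.92), -1.03 ± 0.31 for Wars2 (adjusted p = 0.242, interval -1.75 to -0.31) and -0.69 ± 0.26 for Nars2 (adjusted p = 0.331, interval -1.29 to -0.09). For Aars it was 0.53 ± 0.19 (adjusted p = 0.311) and for Vars 0.48 ± 0.21 (adjusted p = 0.395). A label effect in GFP cells that differs from that in Thy1.1 cells was therefore not shown for any synthetase gene, and the intervals reach 1.92 for Sars2, -1.75 for Wars2 and -1.29 for Nars2.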

How the data were processed

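Amplification of polyA RNA used the SMART-Seq v4 kit (12 cycles), and libraries were sequenced as pairs of 50-nt reads, per the labels' protocols. The authors deposited 1 table of raw counts for each gene, whole numbers that no normalization had changed, per the file headers. DESeq is the tool named by the submitters' processing notes, and the aligner, counter and build were not given in the sources used here. A total of 8 rows with no gene name (0.0215% to 0.0264% of counts) were left out. GFP columns carry the numbers 3 and 4 but GFP titles 1 and 2, so these columns were matched to their population only.

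Counts were tested with edgeR 4.0.16 in R 4.3.3 (TMM scaling, expression filter with a minimum count of 10, 13989 genes, robust quasi-likelihood model of all 8 libraries with 1 mean per population and 4 residual degrees of freedom). P-values were adjusted over all genes tested (Benjamini-Hochberg, threshold 0.05). DESeq2 1.42.0 was an alternative, as were other scalings, filters and sets of libraries. Standard errors and 95% intervals come from the quasi-likelihood F statistic. The pipeline was tested on simulated data in which all genes shared the same spread, so that test does not show how it performs on these libraries. GENCODE gave lengths, positions and overlaps on GRCm38, BLAST 2.17.0 near-identical stretches, and RefSeq promoters.

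The members, gene lists and tests were chosen with earlier results of these data known. The genes described in full were those past the threshold (up to 6 cytosolic and 4 mitochondrial per comparison) and Wars, Kars, Gars, Farsa, Farsb and Eprs; others named with values were chosen after their values were seen, apart from the up to 4 genes per list with the smallest adjusted p. Results of some items are not reported here.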

Additional observations from a re-analysis of the deposited data

How the results depend on the processing

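Among the synthetase values, the 11 other genes and the cell cycle counts that were run, no called value changed direction under an alternative; those of the other genes were added after the data were seen. For marked GFP against marked Thy1.1 cells, called cytosolic genes numbered 3 in the report, 0 with scaling by library totals, 1 with no filter on low counts and 0 when only the 4 libraries compared were fitted; leaving out 1 library gave 0 to 2 cytosolic, 0 to 4 mitochondrial and 481 to 2118 of all genes, and DESeq2 called 3164 of all genes. For unmarked GFP against unmarked Thy1.1 cells, DESeq2 called 1 cytosolic gene and 573 of all genes; all genes called were 98 with no filter, 98 with a minimum count of 50, 1 with only the libraries compared and 0 to 75 with 1 library left out. For marked against unmarked GFP cells, only the libraries compared gave 0 cytosolic and 0 mitochondrial genes and 300 of all genes, DESeq2 gave 2 mitochondrial genes and 3003 of all genes, and 1 library left out gave 0 to 1 cytosolic, 0 to 2 mitochondrial and 458 to 1801 of all genes. For marked against unmarked Thy1.1 cells DESeq2 called 150 of all genes and the fit of only the libraries compared 2. The interaction called 109 of all genes with no filter, 106 with a minimum count of 50, 568 with DESeq2 and 0 to 119 with 1 library left out. Fits of fewer libraries have fewer degrees of freedom; the cause of the other shifts was not tested.

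Over all genes, deviations of libraries in the same place correlated at 0.0325 to 0.0560, under 0.1, so the column numbers were not taken to pair the libraries. A low correlation over all genes cannot exclude a pairing that few genes show, and interferon response genes summed higher in the second library of every population. Whether libraries in the same place shared a source was not tested. With the replicate block, 1 cytosolic gene was called in the first comparison (Hars and Rars had edgeR adjusted p of 0.0524 and 0.0517) and 39 of all genes between the unmarked populations; it changed no other call of a synthetase gene, and that of Slc3a2 was lost (adjusted p = 0.0593). With 2 libraries per population, changes under about 1 log2 unit in the less abundant mitochondrial genes were often not detectable.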
